A study of Mus musculus with 16 samples.

Results

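Phosphoglycerate mutase moves the phosphate of 3-phosphoglycerate to make 2-phosphoglycerate, the step of glycolysis between phosphoglycerate kinase and enolase. Examined here were 4 genes around that step, chosen by name, of the 22911 gene symbols on the array. Pgam1 encodes the mutase subunit of most tissues, Pgam2 the subunit of mature skeletal and cardiac muscle, Bpgm the enzyme that makes and removes 2,3-bisphosphoglycerate and is abundant in red cells, and Minpp1 an inositol polyphosphate phosphatase that can also remove a phosphate from 2,3-bisphosphoglycerate. The mutases and Bpgm share a protein fold and a catalytic histidine, and the mutase is primed by 2,3-bisphosphoglycerate. The 4 genes were read by 6 of the 56605 probes.

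RNA came from whole brown adipose tissue (BAT) and gonadal white adipose tissue (gWAT) of male mice whose strain the labels give as C57BL/6NCrSlc, with 4 arrays per tissue and genotype and 16 in all. Adipo-Pgam1 KO mice carried Adipoq-Cre, a recombinase made under the adiponectin promoter and so active in adipocytes, and Pgam1 flox/flox alleles. Their littermate controls, called wild-type in the labels, carried the same floxed alleles without Cre. The labels give the age as 14 weeks for KO replicate 4 of either tissue and as 16 weeks for all others. The samples are whole tissue, in which fewer cells of a type and less RNA per cell cannot be told apart. Each level below is the log2 of a probe's intensity over the 75th percentile of its array (P75), a scale on which levels of different probes are not comparable. The tissue markers followed the labels: Ucp1 was at least 8.26 on every BAT array and at most -0.15 on every gWAT array, and Adipoq was well above background on all 16. The arrays lay on 3 slides. In each tissue 1 control shared the slide of the 4 Adipo-Pgam1 KO arrays, and the other 3 controls lay on another slide. P75 was at most 451.3 on BAT arrays of controls and at least 650.2 on those of KO mice.

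The bases before the annotated start of Pgam1, Bpgm and Pgam2 are shown because Pgam1 and Bpgm fell in BAT and Pgam2 is the muscle subunit. They are RefSeq sequences of build GRCm38.p6, at chr19:41911621-41911870 (+ strand) for Pgam1, chr6:34476106-34476355 (+ strand) for Bpgm and chr11:5803797-5804046 (- strand) for Pgam2, written 5′ to 3′ up to the base before the start. Capitals mark matches on either strand to CCAAT, to ACGTG (the core of a hypoxia response element), to the E-boxes CAGCTG and CAGGTG, or to the MEF2 motif.
Pgam1: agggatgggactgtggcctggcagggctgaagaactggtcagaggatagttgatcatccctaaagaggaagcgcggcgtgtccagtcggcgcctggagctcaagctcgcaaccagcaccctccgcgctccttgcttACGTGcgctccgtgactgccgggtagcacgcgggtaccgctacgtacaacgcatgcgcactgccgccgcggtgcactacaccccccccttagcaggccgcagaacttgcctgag
Bpgm: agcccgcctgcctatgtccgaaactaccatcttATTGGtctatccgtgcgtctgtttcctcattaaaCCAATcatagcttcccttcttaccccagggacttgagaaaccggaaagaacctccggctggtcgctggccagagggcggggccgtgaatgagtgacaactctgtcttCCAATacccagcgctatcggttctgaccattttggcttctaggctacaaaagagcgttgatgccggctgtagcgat
Pgam2: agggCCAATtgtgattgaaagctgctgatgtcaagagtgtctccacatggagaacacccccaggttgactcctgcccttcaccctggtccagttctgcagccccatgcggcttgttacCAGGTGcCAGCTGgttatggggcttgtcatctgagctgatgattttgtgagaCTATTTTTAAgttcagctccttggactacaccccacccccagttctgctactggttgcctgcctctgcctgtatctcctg
The Pgam1 window held 22 CG dinucleotides, against 1 in Pgam2, 14 in Bpgm and a median of 6 over 32851 promoters. Pgam1 had 1 match to ACGTG, which 16.6% of promoters hold in a window of the same length. Bpgm had 3 matches to CCAAT (held by 33.8% of promoters). Pgam2 had 1 match to CAGGTG (17.2% of promoters), 1 to CAGCTG (13.0%), 1 to the MEF2 motif (2.92%) and 1 to CCAAT. Minpp1 had 1 match to CAGGTG and none to the other motifs. These matches describe letters and are not measured binding.

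Pgam1 is the gene the knockout targets, and it moved in opposite directions in the 2 tissues. Its brighter probe, A_51_P342669, read 7.94, 7.93, 8.07 and 7.82 in BAT of the 4 controls and 6.20, 6.13, 6.03 and 6.43 in BAT of the KO mice. Every control lay above every KO array. In gWAT, the same probe read 5.07, 5.15, 5.67 and 5.56 in controls and 6.50, 6.42, 6.38 and 5.95 in the arrays labelled Adipo-Pgam1 KO. Here every array labelled KO lay above every control, so the target gene goes against the label in gWAT, and each direction given for that tissue rests on the label. Which exons are floxed is not given in the sources used here, nor is the position of either probe in the transcript. The groups were compared with limma at each probe, with p-values adjusted by the Benjamini-Hochberg method over all probes tested. The log2 change was -1.74 (95% interval -2.01 to -1.47, adjusted p = 1.49e-05) in BAT and 0.95 (0.52 to 1.38, adjusted p = 0.0115) in gWAT. The change in gWAT exceeded that in BAT by 2.69 (interaction, adjusted p = 3.06e-06). With the slide entered as a fixed block, a fit that compares the KO arrays with the 1 control on their slide, control replicate 4 of the tissue, the change was -1.62 (adjusted p = 0.000805) in BAT and 0.75 (adjusted p = 0.242) in gWAT, so the call in gWAT was lost. Every genotype change given below with the slide as a fixed block likewise rests on 1 control per tissue.

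The second Pgam1 probe, A_55_P2727354, gave the same picture. It changed by -1.65 in BAT (adjusted p = 1.03e-05) and by 1.02 in gWAT (adjusted p = 0.00945), and lost its call in gWAT with the slide as a block (0.82, adjusted p = 0.215). Set against the mean of the controls of the same tissue, the deviations of the 2 probes differed by at most 0.16 on any array. The brighter probe is printed at 10 spots, whose log2 intensities had an SD between 0.020 and 0.074 within an array.

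**Figure D1:**
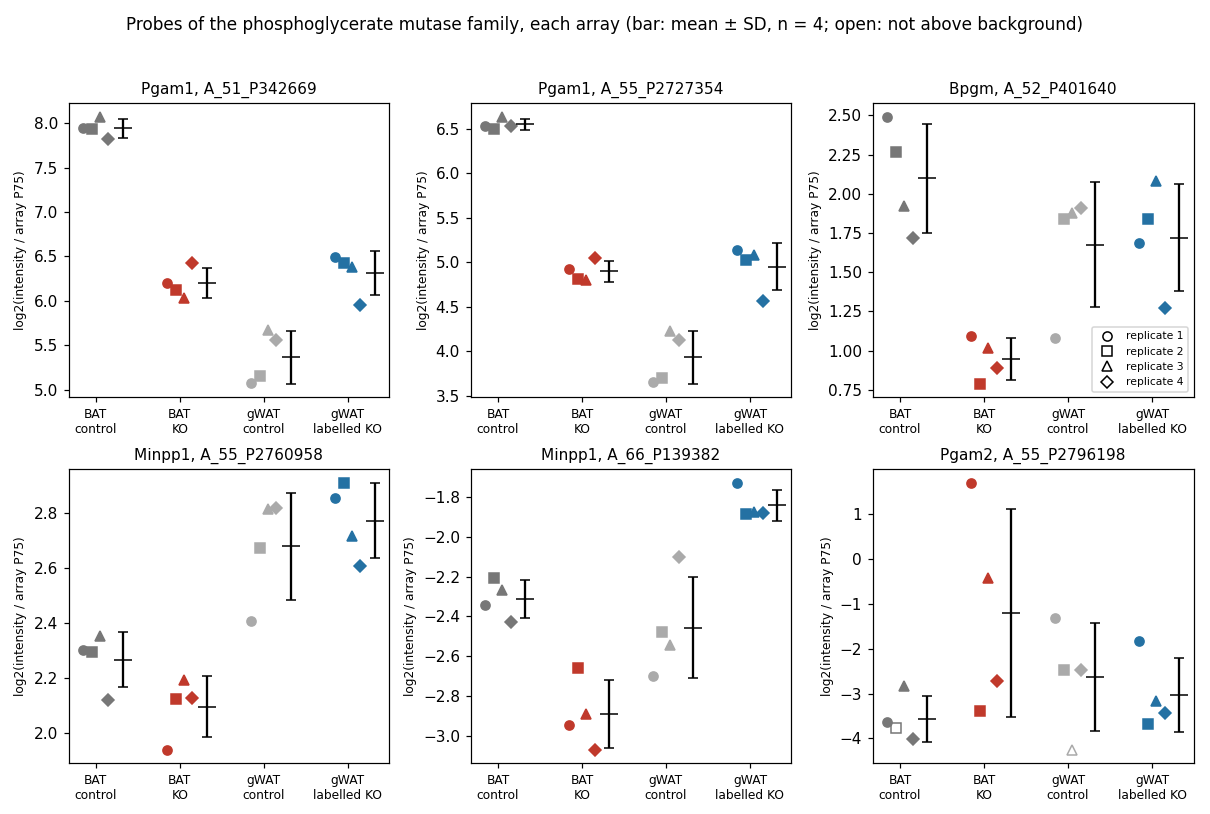
Level of each of the 6 probes on every array, as log2 of intensity over the 75th percentile of the array (vertical axis), in BAT and gWAT of littermate controls (grey) and of mice labelled Adipo-Pgam1 KO (red for BAT, blue for gWAT). Symbols give the replicate number, open symbols are not well above background, and bars are the mean ± SD of 4 arrays. Both Pgam1 probes separate all 4 groups except BAT KO from gWAT labelled KO, and the Pgam2 arrays of BAT KO spread from -3.39 to 1.70.

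Across the 4 groups, Pgam1 was highest in BAT of controls, followed by gWAT labelled KO, BAT of Adipo-Pgam1 KO mice and gWAT of controls. In controls, BAT exceeded gWAT by 2.58 for the brighter probe and 2.62 for the second (limma, adjusted p = 3.59e-06 and 2.97e-06). In the KO mice the difference between BAT and gWAT was -0.12 (95% interval -0.47 to 0.24, adjusted p = 0.574) and -0.055 (adjusted p = 0.794), so the 2 middle places were not separated. In that comparison each tissue lay on a slide of its own, scanned on a different day, so slide, scan day and tissue cannot be told apart. This holds for every difference between the tissues in KO mice given below. In the other neighboring steps of the order no array of one group reached those of the next (exact permutation, two-sided, p = 0.0286, which 4 arrays against 4 cannot go below). The neighbors were picked by the order of the same values, so these p-values do not test the order.

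Of the 6 probes, 4 passed an adjusted p of 0.05 in BAT, all of them lower in Adipo-Pgam1 KO mice. Over all 29921 probes tested there, 57.2% passed, with 33.4% lower and 23.8% higher, so a call in BAT was common. The groups did not overlap for the same count of 4 probes, against 53.1% of those tested. In gWAT 3 of the 6 passed, all higher in the arrays labelled KO, against 19.8% of the 29178 probes tested (10.4% higher and 9.36% lower). The groups did not overlap for 3 of the 6 there, against 25% of probes tested. The interaction passed for 4 of the 6, against 44.3% of 31308 probes. Between the tissues 3 of the 5 probes tested passed in controls (60.7% of 29933 probes passed), and 3 of 6 in KO mice (43.3% of 29993). Calls in BAT depended on scale: of all calls 41.6% were higher, but 79.2% with the arrays scaled by spike-in controls and 14.7% with Actb and Rplp0. The median change of all probes tested was -0.12 under P75, 0.42 under spike-in and -0.71 under Actb and Rplp0 scaling. In gWAT the median was -0.0023 under P75 and 0.44 under spike-in scaling, and the share of calls that were higher moved from 52.6% to 95% under spike-in scaling, to 67.9% when arrays were centred on their medians and to 41.1% with P75 taken over probes above background on all arrays.

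**Figure D2:**
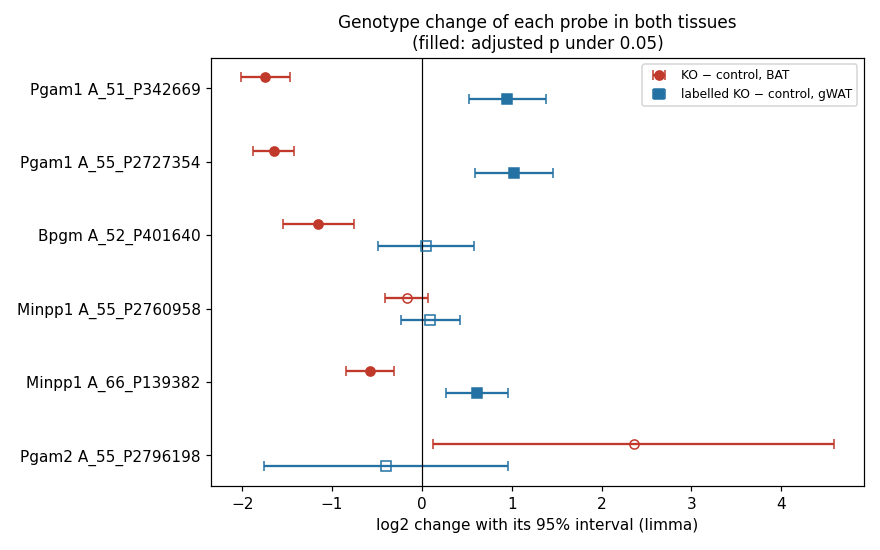
Genotype change of each probe on the log2 scale (horizontal axis) with its 95% interval from limma, for BAT (circles) and gWAT (squares), with filled symbols where the adjusted p is under 0.05. Both Pgam1 probes fell in BAT and rose in gWAT, Bpgm fell in BAT (-1.15, with 0.045 in gWAT), and the interval of Pgam2 in BAT is the widest of those drawn.

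Bpgm fell with Pgam1 in BAT and showed no change past the threshold in gWAT. Its probe, A_52_P401640, passed the background limit on all 16 arrays. In BAT it read 2.49, 2.27, 1.92 and 1.72 in controls and 1.09, 0.79, 1.02 and 0.89 in Adipo-Pgam1 KO mice, without overlap. The change was -1.15 (95% interval -1.55 to -0.75, adjusted p = 0.000603), a relative expression of 0.450. It was -0.77 with the slide as a fixed block (adjusted p = 0.0299) and -0.61 under spike-in scaling (adjusted p = 0.0336). In gWAT it read 1.08, 1.84, 1.88 and 1.91 in controls and 1.69, 1.84, 2.08 and 1.27 in the arrays labelled KO, and these overlap. The change in gWAT was 0.045 (95% interval -0.49 to 0.58, adjusted p = 0.913), which leaves room for a change of either sign. The 2 changes differed by 1.20 (interaction, adjusted p = 0.00597), but by 0.58 (adjusted p = 0.406) with the slide as a fixed block. In controls, BAT and gWAT differed by 0.42 (95% interval -0.12 to 0.96, adjusted p = 0.153), and by 0.76 (adjusted p = 0.00804) with Actb and Rplp0 scaling. In KO mice BAT was lower than gWAT by 0.77 on the log2 scale (adjusted p = 0.0079).

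Since Bpgm is abundant in red cells, its levels were set beside a list of 10 red cell genes, of which 8 were on the array and 5 were tested in each tissue. None passed the threshold in either tissue in limma, 0 also at an unadjusted p under 0.05, and their median change was -0.24 in BAT and -0.18 in gWAT. Alas2, the first enzyme of heme synthesis in red cell precursors, was chosen after its values were seen. It read 3.29, 2.19, 0.63 and 1.41 in BAT of controls and 1.54, 1.20, 1.48 and 1.35 in BAT of the KO mice (change -0.49, adjusted p = 0.408). Within groups Bpgm and Alas2 rose and fell together, with a Pearson's r of 0.88 between their deviations from the group means over 16 arrays, a description with no test. By this r Alas2 ranked 3 for Bpgm among 12362 genes well above background on all arrays, so it is among the highest picked from many. Control replicate 1 in gWAT was lowest of its group for both, with Alas2 at 1.76 against 3.22 to 3.37. In BAT, control replicate 3 had the lowest Alas2 of all arrays and Bpgm at 1.92. Of the controls there, only replicate 4, at 1.41, lay within the Alas2 range of the KO arrays, 1.20 to 1.54. How far the red cells of a sample set its Bpgm level was not tested.

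**Figure D3:**
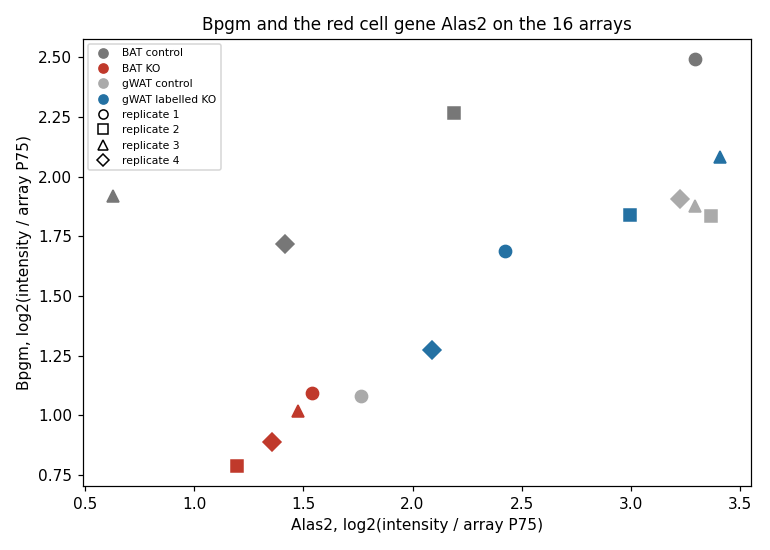
Bpgm (vertical axis) against Alas2 (horizontal axis) on the 16 arrays, both as log2 of intensity over the 75th percentile of the array, with groups by color and replicates by symbol. The gWAT arrays and the BAT KO arrays rise along 1 band, from 0.79 to 2.08 in Bpgm. The 4 BAT controls lie between 1.72 and 2.49 in Bpgm, above the BAT KO arrays, and spread more widely in Alas2 than these.

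Minpp1 was read by 2 probes that did not give the same calls. The brighter one, A_55_P2760958, read 2.30, 2.29, 2.35 and 2.12 in BAT of controls and 1.94, 2.13, 2.19 and 2.13 in Adipo-Pgam1 KO mice. In gWAT it read 2.41, 2.67, 2.81 and 2.82 in controls and 2.85, 2.91, 2.72 and 2.61 in the arrays labelled KO. The groups overlap in both tissues. The change was -0.17 (95% interval -0.41 to 0.070, adjusted p = 0.196) in BAT and 0.093 (-0.24 to 0.42, adjusted p = 0.681) in gWAT. Spike-in scaling turned the change in BAT to 0.37 (adjusted p = 0.0354), close to the median of 0.42 that all probes then had, and scaling by Actb and Rplp0 gave -0.76 (adjusted p = 0.000195). The dimmer probe, A_66_P139382, was still well above background on all 16 arrays. It changed by -0.58 (95% interval -0.85 to -0.31, adjusted p = 0.00291) in BAT and by 0.62 (0.27 to 0.96, adjusted p = 0.025) in gWAT. With the slide as a fixed block neither change of this probe passed (-0.46, adjusted p = 0.0757, in BAT and 0.26, adjusted p = 0.543, in gWAT). Under spike-in scaling the change in BAT was -0.035 (adjusted p = 0.871). The call in gWAT was also lost when any 1 of 6 of the 8 arrays was left out, all but control replicate 4 and replicate 4 of the arrays labelled KO. The calls thus differed between the Minpp1 probes, while a difference in the size of their changes was not tested. For the brighter probe the direction in BAT depended on the scaling. The dimmer one stayed negative there over all alternatives (-1.17 to -0.035).

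Between the tissues, the brighter Minpp1 probe was lower in BAT than in gWAT, by 0.41 on the log2 scale in controls (adjusted p = 0.0239) and by 0.67 in KO mice (adjusted p = 0.00236). The dimmer probe differed by 0.15 in controls (95% interval -0.19 to 0.48, adjusted p = 0.418) and by -1.05 in KO mice (adjusted p = 0.00025). In controls the call of the brighter probe was lost when any 1 of BAT replicate 4 and gWAT replicates 2, 3 and 4 was left out, with adjusted p-values up to 0.0641.

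Pgam2, the muscle subunit, was on the P75 scale the only one of the 4 genes with a higher mean in BAT of the KO mice than of controls, and the difference rested mainly on 2 arrays. Its single probe, A_55_P2796198, read -3.63, -3.78, -2.84 and -4.01 in BAT of controls and 1.70, -3.39, -0.43 and -2.71 in BAT of the KO mice. Replicates 1 and 3 stood apart from the other two, which lay near the controls. It was well above background on all 4 KO arrays and on all controls but replicate 2, so that it entered the comparison through the KO group. The change was 2.36 (95% interval 0.13 to 4.58), and its adjusted p of 0.0673 did not pass. It ranged over the alternatives from 0.51 to 3.08, with adjusted p-values between 0.0212 and 0.284. It passed under spike-in scaling (2.90), with all 16 arrays in 1 fit (2.36), and without KO replicate 2 (3.08) or 4 (2.86). Without replicate 1 the change was 1.39, and without both replicates 1 and 3 it was 0.51 (adjusted p = 0.284), an alternative added after seeing the data.

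The same 2 arrays carried skeletal muscle transcripts. Of 21 muscle markers, all 21 were well above background on KO replicates 1 and 3, against 14 and 10 on replicates 2 and 4 and 10 to 14 on BAT controls. Their summed level, in units of P75, was 215.0 and 42.1 on replicates 1 and 3, 10.2 and 14.2 on replicates 2 and 4, and 44.9 to 51.9 in controls. The median log2 level of the list was at most -3.24 on control arrays and reached 1.96 on KO arrays. Tnni2, the inhibitory troponin of fast muscle, read 4.99 and 2.63 on replicates 1 and 3, -0.50 and -0.63 on replicates 2 and 4, and -2.96 to -1.83 on controls. Of the 10 muscle markers tested in BAT, 3 were higher past the threshold (Tnni2 by 4.05, Tnnc2 by 3.55 and Acta1 by 3.11). The 1 marker that was lower was Myl1, which fell by 2.04. Over all probes tested in BAT 23.8% were higher and 33.4% lower, so these counts do not set the list apart. All 3 that rose encode thin filament proteins, and Myl1 encodes a myosin light chain of fast muscle. A difference between kinds of muscle protein was not tested. With the slide as a fixed block 0 of the 10 passed in limma (2 at an unadjusted p under 0.05), while their median change was 1.56 against 1.92 without the block and that of Acta1 was 4.07. Their part in the Pgam2 change was not tested. Leaving those 2 arrays out cannot show it, since they were also the highest of the KO arrays for Pgam2.

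In gWAT, Pgam2 read -1.32, -2.48, -4.25 and -2.48 in controls and -1.84, -3.68, -3.17 and -3.44 in the arrays labelled KO, with a change of -0.40 (95% interval -1.76 to 0.95, adjusted p = 0.667). Control replicate 1 was the highest of these 8 arrays, and replicate 3 was not above background. The 21 muscle markers summed to 19.4 on control replicate 1, the lowest of its group, which reached 45.7. Prm2, a protamine that packs sperm DNA, read 2.39 there and -4.31 to -2.04 on the other gWAT arrays. The summed level of 9 epididymis and sperm markers was 16.6 on that array and 0.84 to 3.72 on the other 7. Of these markers 7 were well above background on control replicate 1, 7 also on control replicate 4, and 3 to 5 on the other gWAT arrays. Without control replicate 1 the change of Pgam2 in gWAT was 0.037, and whether those cells contributed to the Pgam2 level was not tested. Pgam2 was not tested between the tissues in controls, where neither group had all 4 arrays above background, and in KO mice it differed by 1.82 (95% interval -0.44 to 4.09, adjusted p = 0.169).

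**Figure D4:**
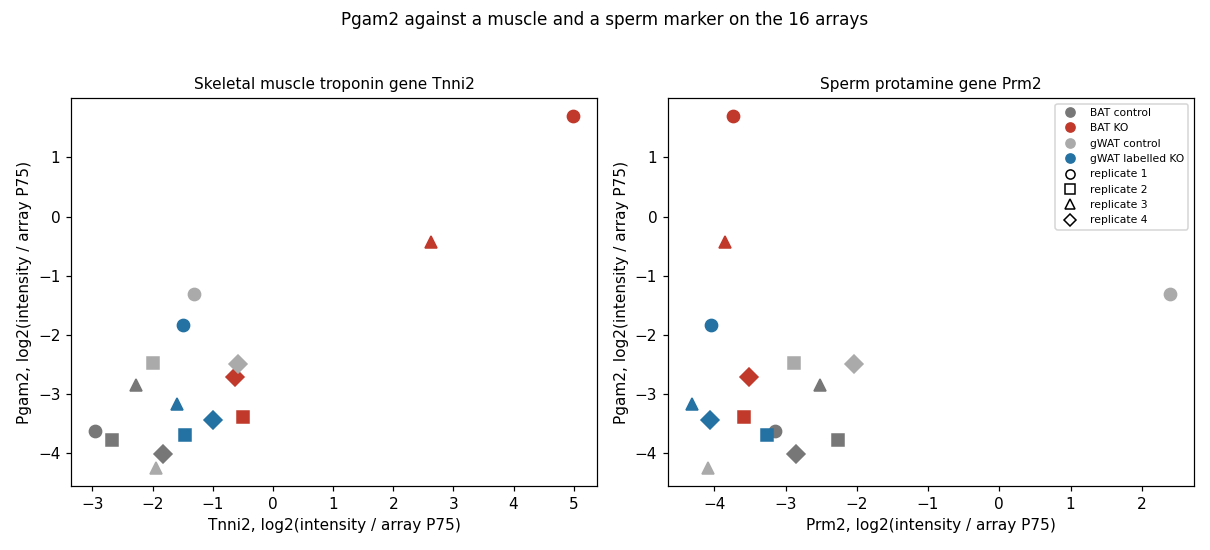
Pgam2 (vertical axes) against the muscle gene Tnni2 (left) and the sperm gene Prm2 (right) on the 16 arrays, all as log2 of intensity over the 75th percentile of the array, with groups by color and replicates by symbol. BAT KO replicates 1 and 3 are highest for Pgam2 and for Tnni2, at 4.99 and 2.63, and gWAT control replicate 1 stands apart for Prm2, at 2.39.

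Of the neighbors of the mutase in the pathway, Pgk1 and Eno1 had smaller negative changes than Pgam1 in BAT and rose in gWAT. The differences between genes were not tested. Pgk1, the kinase just before the mutase, changed by -0.66 in BAT (adjusted p = 0.00161) and by 1.27 in gWAT (adjusted p = 0.00804). Eno1, the enolase just after it, changed by -0.79 (adjusted p = 0.00139) and by 1.35 (adjusted p = 0.00622). In BAT both lost their calls under spike-in scaling (-0.12 and -0.25) and quantile normalization (0.097 and -0.15), so that Pgk1 turned its sign. In gWAT both lost them with the slide as a fixed block (0.99, adjusted p = 0.204, and 1.15, adjusted p = 0.158). Eno2, the enolase of neurons, changed by 0.95 in BAT and 0.21 in gWAT, and Eno3, the enolase of muscle, by -0.25 and 0.33, none past the threshold. Pgk2 and Eno4, both made mainly in the testis, were on the array but not tested. Pgk2 was above background on 1 array, gWAT control replicate 1.

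Over the 25 other glycolytic enzymes listed, 18 were tested in BAT, of which 10 were lower and 3 higher past the threshold, with a median change of -0.68. In gWAT 20 were tested, 10 were higher and 0 lower in limma (11 and 0 at an unadjusted p under 0.05), with a median of 0.94. Over all probes tested, 33.4% were lower and 23.8% higher in BAT, and 9.36% were lower and 10.4% higher in gWAT. The split in BAT depended on scale, with 6 higher and 5 lower under spike-in scaling and 6 higher and 4 lower under quantile normalization, where Aldoa and Gapdh as well as Pgk1 changed sign. With the slide as a fixed block 1 enzyme passed in gWAT (9 at an unadjusted p under 0.05, with a median change of 0.997), and 10 were lower and 3 higher in BAT (median -0.68). Without BAT KO replicates 1 and 3 11 were lower and 3 higher, and 10 were higher and 0 lower without gWAT control replicate 1. In BAT Pfkm and Pfkl, subunits of phosphofructokinase, fell by 1.71 and 1.24, Ldhb by 1.11 and Ldha by 0.92. Aldoc, an aldolase, and Hk3, a hexokinase, rose by 3.65 and 3.18, and the other enzyme that rose was Hk1. In gWAT the largest rises were those of Pkm (2.18), Pfkl (1.89), Gpi1 (1.69) and Gapdh (1.47). The change of Pgam1, -1.74 in BAT, lay beside that of Pfkm, and 0.95 in gWAT lay near the median of the list.

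**Figure D5:**
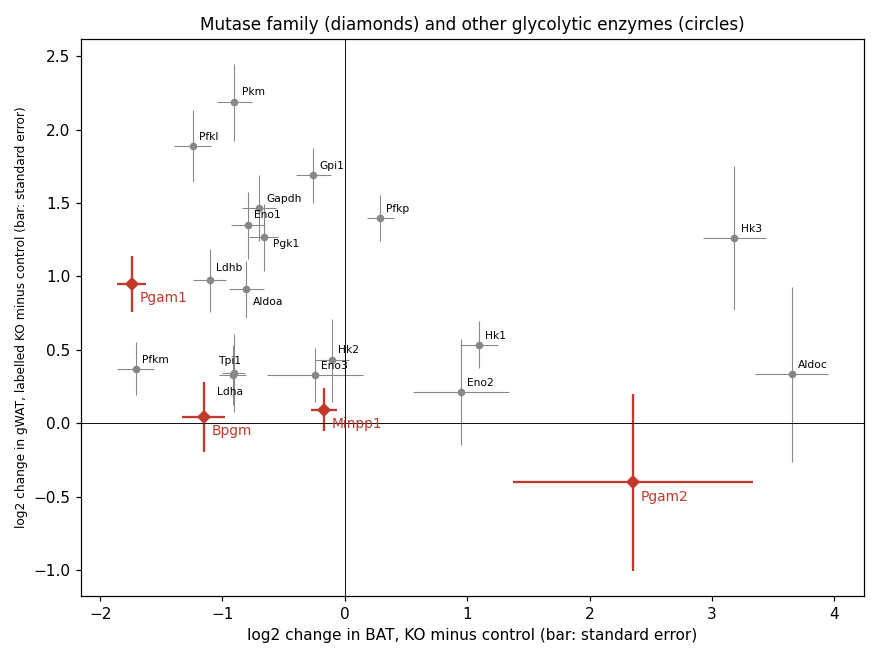
Log2 change in gWAT (vertical axis) against that in BAT (horizontal axis) for the mutase family (red diamonds, brightest probe of each gene) and the other glycolytic enzymes tested in both tissues (grey circles), with standard errors from limma. Pgam1 lies at the left, at -1.74 and 0.95, Bpgm at -1.15 and 0.045, and Pgk1 and Eno1 lie above both, at 1.27 and 1.35 in gWAT.

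In the branch that leaves glycolysis at 3-phosphoglycerate, the substrate of the mutase, Phgdh, which opens serine synthesis, rose by 3.42 (adjusted p = 2.87e-05) and Psat1, the transaminase after it, by 4.89 (adjusted p = 1.03e-06) in BAT. Psph, the phosphatase that completes serine, changed by -0.068 in BAT (adjusted p = 0.623) and rose by 0.99 in gWAT (adjusted p = 0.0254). In gWAT Phgdh changed by 0.092 and Psat1 by 0.40, neither past the threshold. The call of Psph was lost without gWAT control replicate 1 (0.95, adjusted p = 0.058).

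For the 2 lists that follow, the shares of all probes tested were 33.4% lower and 23.8% higher in BAT, and 9.36% lower and 10.4% higher in gWAT. Of 13 relatives of the mutase in the histidine phosphatase superfamily, both tissues allowed 10 to be tested. Past the threshold, 5 were lower and 3 higher in BAT, and 2 were lower and 2 higher in gWAT. There 0 passed with the slide as a fixed block, and 0 were higher without gWAT control replicate 1. The forms of 6-phosphofructo-2-kinase/fructose-2,6-bisphosphatase, which set the level of fructose 2,6-bisphosphate, did not move as 1 group: Pfkfb1 fell by 2.44 in BAT and Pfkfb3 by 1.30, whereas Pfkfb4 rose by 1.15. Ubash3b and Pxylp1 rose by 2.92 and 2.24 in BAT. Tigar, a fructose 2,6-bisphosphatase, changed by 0.26 in BAT (adjusted p = 0.287) and rose by 1.09 in gWAT (adjusted p = 0.0237, and 0.0531 without that array). Among 15 enzymes of inositol polyphosphates tested, the other pathway of Minpp1, 4 were lower and 2 higher in BAT and 5 were higher in gWAT, 2 with the slide as a fixed block. In BAT 10 were higher under spike-in scaling and 12 lower with Actb and Rplp0. Itpka and Itpk1, inositol phosphate kinases, fell by 2.18 and 1.17 in BAT, and Impa2, an inositol monophosphatase, rose by 2.33 in gWAT.

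Markers of the cells in these tissues moved too. Past the threshold, 33.4% of all probes tested were lower and 23.8% higher in BAT, and 9.36% were lower and 10.4% higher in gWAT. In BAT all 8 adipocyte genes listed fell, with a median of -1.15, against -1.15 for Bpgm and -1.74 for Pgam1, and under spike-in scaling 7 fell, with a median of -0.60. Of 9 macrophage genes 8 rose, with a median of 2.91, and their summed level was 26.6 to 39.1 in controls and 95.6 to 146.2 in Adipo-Pgam1 KO mice. In BAT 8 to 9 of them were well above background on control arrays and 9 on KO arrays, so not all entered through the controls. In gWAT 2 of the 9 macrophage genes rose, Trem2 by 1.72 and Cd68 by 1.48, and neither passed with the slide as a fixed block or without control replicate 1. Their summed level in gWAT was 65.0 to 89.9 in controls and 71.9 to 120.2 on replicates 1 to 3 of the arrays labelled KO, and 224.1 on replicate 4, which was also the lowest of that group for Pgam1 and Bpgm. Replicate 4 is the only one of the group labelled 14 weeks, so age and array cannot be told apart. Without that array the change in gWAT was 1.07 for Pgam1 A_51_P342669 and 0.19 for Bpgm. In gWAT 1 of the 8 adipocyte genes fell, Adipoq by 0.89. That count depended on scale, with 4 lower under quantile normalization and 0 with arrays centred on their medians. Under spike-in scaling 0 were lower and 1 higher. Of 6 brown adipocyte genes tested in gWAT 5 rose, led by Elovl3 (4.35) and Cpt1b (4.23). Ucp1 and Dio2 were not tested there. Of the 8 listed, 5 to 7 were well above background on control arrays and 6 to 8 on those labelled KO. Not all of the 6 thus entered through the controls, and those that did not entered through the arrays labelled KO. With the slide as a fixed block 2 of the 6 passed, 5 had an unadjusted p under 0.05, and the median was 2.89 against 3.25 without the block. In BAT 6 of these 8 brown adipocyte genes fell. The part of these cell types in the changes of the 4 genes was not tested.

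The genes most like each member over the 16 arrays were sought among 12362 genes well above background on all of them, by Pearson's r between log2 levels. For Pgam1 they were Sdhc (0.994), a subunit of succinate dehydrogenase, Ndufb7 (0.991), a subunit of complex I, Ppdpf (0.991), C030006K11Rik (0.990) and Mrpl10 (0.989), a mitochondrial ribosomal protein. For Bpgm they were Nr1h3 (0.938), the nuclear receptor LXR alpha, Gpam (0.932), the first enzyme of glycerolipid synthesis, Fitm2 (0.931), which acts in lipid droplet formation, Sidt2 (0.921) and Cd59a (0.920). For Minpp1 they were Ppp3r1 (0.961), the regulatory subunit of calcineurin, Ryk (0.956), a Wnt receptor, Calm3 (0.954), a calmodulin gene, Itgb1bp1 (0.954) and Tmbim1 (0.953). These arrays share 4 groups, and r over them includes the differences between group means. Over deviations from the group means, r of the same genes was between 0.841 and 0.966 for Pgam1, 0.747 and 0.834 for Bpgm, and 0.690 and 0.857 for Minpp1. Pgam2 was left out, since 2 of its arrays were not above background.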

How the data were processed

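Intensities of 1-colour Agilent arrays (mm9 array design) were deposited per probe; per the labels the authors ran Agilent Feature Extraction (10.7.1.1 in the submitters' processing notes), which subtracts background, and per the methods scaled them in GeneSpring GX. The deposited scaled table is linear, with column medians between 0.083 and 0.109. Its values differed from those used here by a median of at most 0.00504 (log2) per array. That median was taken only over values above the 75th percentile of all intensities, so dimmer values were not compared. Spots of irregular signal (52 to 98 per array) were left out, spots of a probe averaged, and the log2 intensity taken minus that of the 75th percentile of the array. Of 35886 probes with a RefSeq accession, 91.9% had a symbol in the RefSeq table (GRCm38.p6), used for names only, and 23611 probes had none. To be tested, a probe had to be measured on every array compared and well above background throughout 1 group or more. No spot was saturated, and between 50.0% and 62.2% of probes per array were well above background. The number of arrays limits the precision. Probes were tested with limma 3.58.1 in R 4.3.3, separately per tissue, and over all 16 arrays for the interaction. The threshold was an adjusted p of 0.05. The labels do not say whether arrays are separate animals, and p-values measure only the spread between these samples.

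Named were all probes of the 4 genes, list genes past the threshold with the largest changes (up to 4 in each direction per list), Pgk1, Pgk2, Eno1 to Eno4, the 5 genes most like each member, and Ucp1, Adipoq and Cpt1b. Lists use the brightest probe of a gene. The members and lists were chosen with earlier results of these data known. The normexp alternative (offset 50) used median signals, since the files used here hold no mean signal. List counts under other scalings, with the slide as a block, without BAT KO replicates 1 and 3 or without gWAT control replicate 1 were added after seeing the data. The fit was tested on simulated data.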

Additional observations from a re-analysis of the deposited data

Results flagged for a closer look

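The genotype change differed between the tissues past the threshold for both Pgam1 probes, by 2.69 (A_51_P342669) and 2.67 (A_55_P2727354), for Bpgm by 1.20 and for the dimmer Minpp1 probe, A_66_P139382, by 1.19 (interaction in limma, change in gWAT minus change in BAT). Single arrays stood apart in 2 of the 24 sets of 4 arrays checked, where chance would mark about 1 in 20 sets. Bpgm was low on gWAT control replicate 1, with a gap to the next array of 0.914 of the range, and without that array its change in gWAT was -0.15. Minpp1 A_66_P139382 was high on replicate 1 of the gWAT arrays labelled KO, with a gap of 0.925 of the range.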

How the results depend on the processing

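Over 760 alternative values of the 6 probes, 720 kept their side of the threshold, with the same direction where called, 26 lost their call, 13 gained one and 1 turned around, Minpp1 A_55_P2760958 in BAT under spike-in scaling (0.37). Counts below are of the 4 genes by their brightest probe, then of all probes past the threshold. In BAT 2 genes and 17122 probes passed. Under spike-in scaling 4 genes passed, Pgam1 and Bpgm lower and Minpp1 and Pgam2 higher. Minpp1 was also added, lower, under Actb and Rplp0 scaling. Pgam2 was added, higher, with all 16 arrays in 1 fit and with the replicate number as a block. In gWAT 1 gene and 5764 probes passed, under spike-in scaling 2 genes and 9237 probes, centred on array medians 3651 probes, and by the methods' t-test without adjustment 10023 probes. With the slide as a fixed block, gWAT had 0 genes and 516 probes and the interaction 1 gene (of 2) and 6089 probes (of 13864). The tissues in controls gave 2 genes, and 1 with array medians, with no filter on dim probes, with the slide as a block and with the replicate number as a block, as Minpp1 was lost. With Actb and Rplp0 scaling the count stayed at 2, but Minpp1 A_55_P2760958 was lost (-0.077, adjusted p = 0.52) and Bpgm gained (0.76). Spike-in scaling gave 8165 probes (of 12972) between the tissues in KO mice. Without the filter on dim probes, 28613 probes passed in BAT and 2266 in gWAT. With 1 probe per gene, and so fewer probes, the counts were 8785 in BAT, 2533 in gWAT, 7158 for the interaction, 9253 and 6656 between tissues in controls and KO mice. Other causes were not tested.

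Leaving out 1 array, the counts of genes ranged from 2 to 3 in BAT and for the interaction, 1 to 2 between tissues in controls, and stayed at 1 in gWAT and 2 between tissues in KO mice. The counts of probes ranged from 15029 to 17197 in BAT, 2879 to 7739 in gWAT, 12431 to 14902 for the interaction, 16586 to 17646 in controls and 9930 to 14739 in KO mice. In gWAT the count fell by over 1.5 times without control replicates 2 or 3 (3074 and 3685) or without replicates 1, 2 or 3 of the arrays labelled KO (3032, 3306 and 2879). Pgam2 gained its call in the interaction without BAT KO replicate 2 or gWAT control replicate 3 (-3.49 and -3.30).

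The replicate numbers were not taken to pair the samples. The only tie beyond the number that the labels give is age, 14 weeks for KO replicate 4 of both tissues. The interaction and the comparisons between tissues thus took all arrays as separate samples. Correlations between the deviations of same-numbered arrays were partly negative. Between the tissues they ranged from -0.126 to 0.193 in controls and from -0.233 to 0.23 in KO mice. Between control and KO arrays they ranged from -0.126 to 0.399 in gWAT and from 0.0817 to 0.164 in BAT. In BAT all 4 were positive and 7 of 8 arrays were closest to their own number, a hint from the data and not the design. With the replicate number as a block, 3366 probes passed in gWAT, and Pgam2 gained a call in BAT (2.36, adjusted p = 0.0441) and between tissues in KO mice (1.82, adjusted p = 0.0432). The slide could not be fitted as a block in the latter comparison.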
